A study of Sus scrofa with 67 samples.

Results

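The ovary and the oviduct of pigs were compared at the onset of oestrus, across all genes of a table of read counts. The comparison used the 3 ovary and the 3 oviduct libraries that the labels place at day 0, which are 6 of the 66 libraries of the table. The study sampled endometrium, ovary and oviduct of non-pregnant gilts, young female pigs, on 7 days of the oestrous cycle, and sequenced poly-A RNA of each tissue. The gilts were Landrace × Yorkshire crosses of 6 to 8 months that had completed at least 2 cycles. No agent or allele was named for any group. Cycle days were counted from the first signs of oestrus, set as day 0. Each ovary library came from the whole ovary of a single side, so follicles, any luteal tissue, stroma, vessels and surface were sampled together, and each oviduct library came from tissue of the ampulla region. The study took the tissues of a day from 3 gilts, so that ovary and oviduct libraries can share animals, but the labels do not tie a library to an animal. The libraries were therefore fitted as separate samples, and p-values measure the spread between them only. A library is named here by its tissue and its number in the table.

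The ovary holds the oocytes in follicles, whose granulosa and theca cells make oestrogen, androgen precursors and inhibin. The steroids are built from cholesterol, which CYP11A1 cleaves in mitochondria and CYP17A1 turns towards androgens, under the nuclear receptor NR5A1. The ampulla is the wide part of the oviduct in which fertilisation takes place. Its lining is made of secretory cells, which release oviductin (OVGP1) into the lumen, and of ciliated cells, whose motile cilia are built under the transcription factor FOXJ1, and it is surrounded by smooth muscle.

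The libraries held 10034096 to 11573086 counts, so that 3 counts, taken as the lowest detectable level, stood for 0.26 to 0.315 CPM, the usual depth-scaled count. CPM of the ovary and oviduct on day 0 are scaled by the TMM factors of the 6 libraries. Those of the endometrium, and the levels compared over the days, are scaled by factors of all 66 libraries, so these scales differ somewhat. Intervals and the floor cover counting error only. Pearson's r over genes on log2(CPM + 1) was 0.909 to 0.963 between ovary libraries, 0.969 to 0.981 between oviduct libraries and 0.724 to 0.782 across the tissues. The ovary libraries were thus less alike than the oviduct libraries, and the median SD of a gene over the 3 libraries was 0.292 on the log2 scale in the ovary and 0.202 in the oviduct. Some lists of marker genes differed in summed level between ovary libraries. Over the 14 genes of a steroid hormone synthesis list the summed level was 1049 CPM in ovary library 1, against 7708 and 8690 CPM in libraries 2 and 3, and 10 of the 14 were lowest in library 1. Over the 15 genes of an immune cell list it was 361.3 CPM in ovary library 3, against 6655 and 6215 CPM in libraries 1 and 2, and 12 of the 15 were lowest in library 3. Results that lean on these libraries are given below with the values of each. In bulk tissue, fewer cells of a type and less RNA per cell cannot be told apart.

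Of 14702 genes tested, 5579 were called (37.9%), that is, had a Benjamini-Hochberg adjusted p under 0.05 in edgeR's quasi-likelihood test. Of these, 2543 were higher in the ovary (17.3% of genes tested) and 3036 were higher in the oviduct (20.7%). Counts of list members below can be set against these shares. Large called differences were more often towards the oviduct. Called differences of 8-fold or more (3 on the log2 scale) numbered 513 towards the ovary (3.49%) and 1125 towards the oviduct (7.65%). These counts depend on passing the test, and the SD between libraries was larger in the ovary for 66% of genes. How far this spread lowered the ovary counts was not tested. In 7679 genes (52.2%) the libraries of the tissues did not overlap. The median log2 fold change over all genes tested, ovary over oviduct, was 0.06. The count of genes higher in the ovary was 1261 without oviduct library 1 and 1345 without either oviduct library 2 or 3, and that of genes at least 8-fold higher was 339 without oviduct library 2 and 343 without oviduct library 1. The total was 3616 without oviduct library 1.

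**Figure D1:**
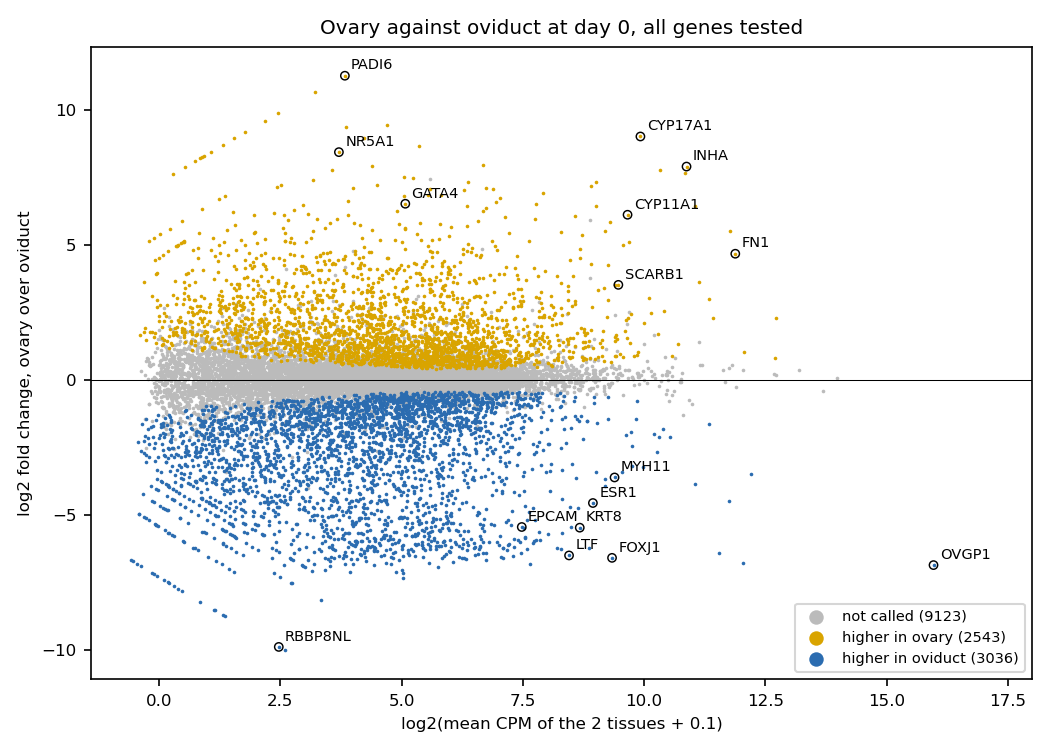
Each point is 1 of the 14702 genes tested, with the mean level of both tissues on the x axis, log2(CPM + 0.1), and the log2 fold change of ovary over oviduct at day 0 on the y axis. Gold points are the 2543 genes called higher in the ovary, blue points the 3036 called higher in the oviduct and grey points the 9123 not called, with OVGP1 far to the right of all others and CYP17A1, INHA and FN1 among the genes far above the line at high levels.

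Genes of the secretory epithelium were higher in the oviduct. It holds 25 genes, of which 16 had a row in the table under their symbol and 15 were tested. Of these, 13 were higher in the oviduct, with a median log2 fold change of -5.44 against 0.06 over all genes. For this list, and for those of motile cilia and smooth muscle, 0 members were higher in the ovary by edgeR's quasi-likelihood test, by its unadjusted p under 0.05 or by DESeq2. OVGP1, the secreted oviductin, stood at 177300, 47780 and 156600 CPM in the 3 oviduct libraries and at 519.7, 2052 and 728 CPM in the 3 ovary libraries. It took 5.13% to 16.8% of all counts of an oviduct library, and oviduct library 2 was the lowest. Its log2 fold change was -6.85 (SE 0.88, adjusted p = 0.0014), and the tissues did not overlap. In the 3 endometrium libraries of the same day it stood at 22.6 to 102 CPM, below each ovary library.

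Other secretory and barrier genes of the oviduct were low in the ovary. LTF, the iron-binding protein lactoferrin, stood at 1045, 349.8 and 686 CPM in the oviduct and 2.92, 14.1 and 5.99 CPM in the ovary (log2 fold change -6.50, SE 0.76, adjusted p = 0.000972). KRT8, a keratin of simple epithelia, stood at 767, 838 and 792 CPM against 14.9, 12.4 and 26.8 CPM (log2 fold change -5.47, SE 0.36, adjusted p = 9.32e-05). No ovary library came near an oviduct library for either gene. The epithelial adhesion molecule EPCAM (-5.44), the junction proteins CDH1 (-5.15) and CLDN4 (-5.35) and the epithelial transcription factors ELF3 (-6.94), EHF (-5.59), GRHL2 (-5.03) and PAX2 (-6.00) had log2 fold changes of like size, each called. These 7 genes were picked from the list after their values were seen. KRT8, EPCAM, CDH1 and CLDN4 were also well expressed in the endometrium, which stood at 633.5 to 803 CPM for KRT8 and 575 to 602 CPM for EPCAM. The members not called were ANXA4, a calcium-dependent membrane-binding protein, and CLU, the chaperone clusterin. ANXA4 was called higher in the oviduct without ovary library 2 or 3. CLU stood at 4412, 3861 and 4253 CPM in the oviduct and at 4505, 5494 and 425 CPM in the ovary, so that ovary library 3 was low while libraries 1 and 2 lay above the oviduct (log2 fold change -0.27, SE 0.78, adjusted p = 0.815).

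The genes of motile cilia were higher in the oviduct nearly without exception. Of 46 genes in the list, 31 had a row and were tested, 30 were higher in the oviduct and the median log2 fold change was -5.74. Their summed level was 5784, 6005 and 5285 CPM in the oviduct and 135.3, 137.7 and 171.7 CPM in the ovary, with 1198 to 1851 CPM in the endometrium. The 30 calls held in all 12 alternative analyses, as did the 13 calls of the secretory list.

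FOXJ1, the master regulator of motile ciliogenesis, stood at 1323, 1432 and 1096 CPM in the oviduct and 3.63, 15.4 and 21.0 CPM in the ovary. All oviduct libraries lay far above all ovary libraries (log2 fold change -6.59, SE 0.70, adjusted p = 0.000624). ZMYND10, needed to assemble the dynein arms, stood at 372, 489.7 and 379 CPM against 2.75, 6.74 and 9.54 CPM (log2 fold change -6.02, SE 0.49, adjusted p = 0.000204). ROPN1L, a radial spoke protein, stood at 285, 341 and 378 CPM against 3.99, 4.71 and 7.63 CPM (log2 fold change -5.94, SE 0.32, adjusted p = 4.75e-05). Regulators that act before FOXJ1 in the ciliated cell were higher in the oviduct too, with log2 fold changes of -6.56 for GMNC and -6.07 for TP73. The change of RFX3, a transcription factor of ciliary genes, was -4.33. The smallest called difference was that of CCDC39, a ruler of the axoneme, at 142, 141 and 116 CPM against 20.5, 19.3 and 21.2 CPM (log2 fold change -2.71, adjusted p = 5.73e-05). The member not called, CCNO, a cyclin-like gene of basal body amplification, stood at 14.1, 89.9 and 12.6 CPM in the oviduct and 8.07, 1.94 and 8.59 CPM in the ovary, so that a single oviduct library, number 2, was far above the rest (log2 fold change -2.64, SE 0.94, adjusted p = 0.0645). GMNC, TP73, RFX3, CCDC39 and CCNO were singled out after their values were seen.

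Smooth muscle genes were also higher in the oviduct. Of 15 in the list, 11 were tested, 9 were higher in the oviduct, with a median log2 fold change of -2.12. Their summed level was 17600, 27850 and 26940 CPM in the oviduct and 2767, 6635 and 6597 CPM in the ovary. ACTG2, the enteric smooth muscle actin, stood at 4235, 8404 and 7186 CPM in the oviduct and 39.7, 238 and 615 CPM in the ovary (log2 fold change -4.47, SE 0.97, adjusted p = 0.0118). DES, the muscle intermediate filament desmin, stood at 3133, 4066 and 4672 CPM against 39.6, 176 and 612 CPM (log2 fold change -3.84, SE 0.94, adjusted p = 0.0184). In both genes ovary library 3 was the highest of the ovary and ovary library 1 the lowest, and all 3 stayed under every oviduct library. ACTA2, the actin shared by muscle and contractile stroma, differed less, with 2804, 4959 and 4102 CPM against 692, 1701 and 1398 CPM (log2 fold change -1.65, SE 0.40, adjusted p = 0.0171). MYH11, the smooth muscle myosin heavy chain, added after its values were seen, stood at 1084, 1301 and 1342 CPM against 51.5, 82.2 and 172 CPM (log2 fold change -3.61, adjusted p = 0.00152). TAGLN (log2 fold change -0.88, adjusted p = 0.161) and CALD1 (0.09, adjusted p = 0.812), the latter chosen after its values were seen, were not called. DES was not called without ovary library 2, oviduct library 2 or oviduct library 3, and ACTA2 not without oviduct library 2 or 3 or in the fit of all 66 libraries.

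Among the steroid receptors, the oestrogen receptor ESR1 separated the tissues most. It stood at 1030, 804 and 1004 CPM in the oviduct and 32.2, 33.4 and 55.0 CPM in the ovary, with 547 to 651 CPM in the endometrium. The oviduct libraries lay close together and far above the ovary (log2 fold change -4.56, SE 0.30, adjusted p = 9.2e-05). The progesterone receptor PGR stood at 87.6, 108 and 104 CPM in the oviduct and at 4.26, 170.0 and 157 CPM in the ovary. Ovary library 1 was thus far below the oviduct, and ovary libraries 2 and 3 above it (log2 fold change 0.14, SE 1.0, adjusted p = 0.925), and PGR was called higher in the ovary without ovary library 1. The membrane progesterone receptor components PGRMC1 (0.51, adjusted p = 0.332) and PGRMC2 (0.28, adjusted p = 0.144) were not called. GREB1, a coactivator of ESR1, and the glucocorticoid receptor NR3C1 were higher in the ovary, with log2 fold changes of 2.34 (adjusted p = 0.0132) and 1.03 (adjusted p = 0.0489). GREB1 was not called without any 1 of the oviduct libraries, nor NR3C1 without any library except ovary library 3. The oestrogen receptor ESR2 was too low to be tested, with 1.77, 0 and 1.56 CPM in the ovary and 0.105, 0 and 0 CPM in the oviduct. GREB1, NR3C1 and ESR2 lie outside the naming rule and were chosen after their values were seen. In all, 2 of the 11 members tested were higher in each tissue, close to the shares of all genes (17.3% and 20.7%).

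**Figure D2:**
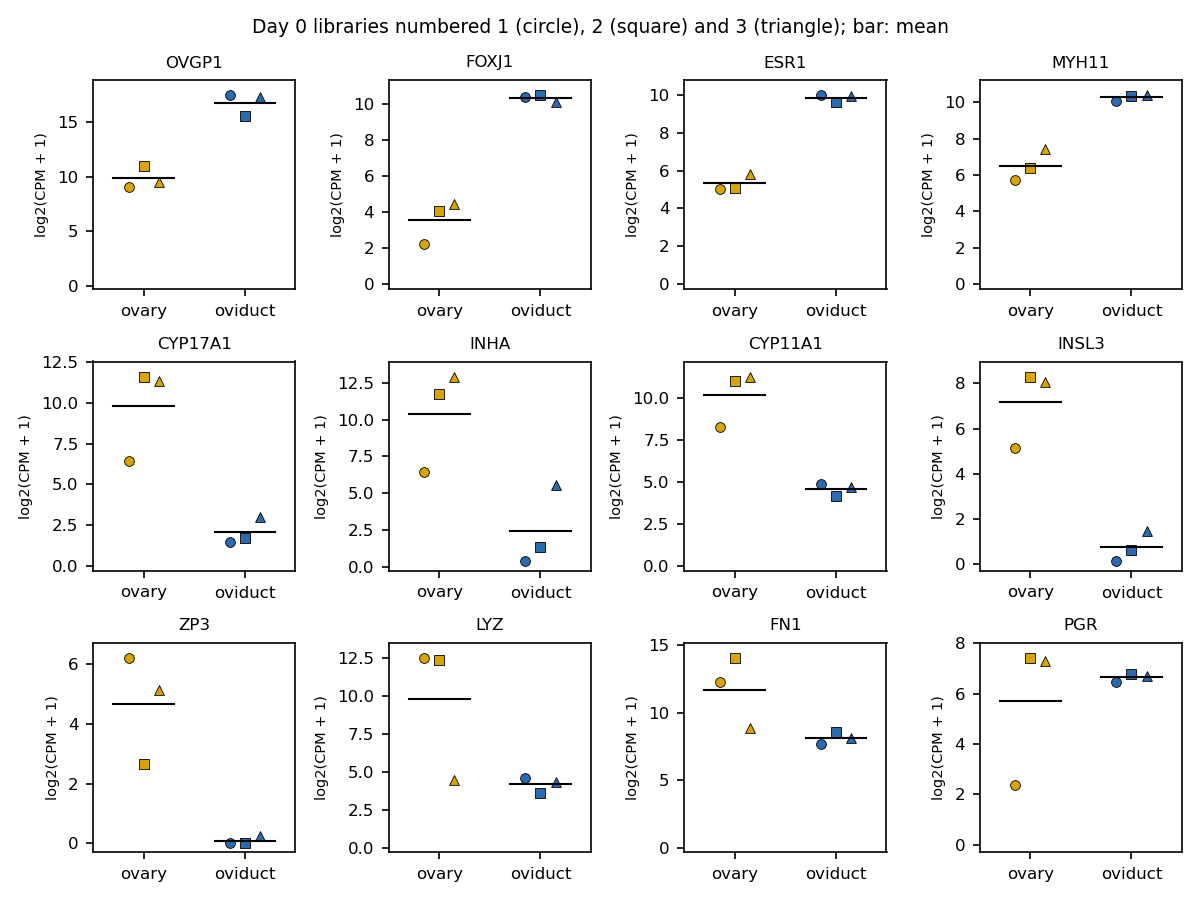
Each panel shows log2(CPM + 1) of a gene in the 3 ovary (gold) and 3 oviduct (blue) libraries of day 0, with library 1 as a circle, 2 as a square and 3 as a triangle, and a bar at the mean. OVGP1, FOXJ1, ESR1 and MYH11 lie higher in every oviduct library, ovary library 1 is low for CYP17A1, INHA, CYP11A1, INSL3 and PGR, ovary library 2 is low for ZP3, and ovary library 3 is near the oviduct for LYZ and FN1.

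On the ovary side, genes of steroid hormone synthesis were higher in the ovary for 9 of the 12 tested members (23 in the list, 14 with a row), with a median log2 fold change of 2.98. CYP17A1, the enzyme of androgen synthesis in the theca, stood at 85.2, 3116 and 2622 CPM in the ovary and 1.79, 2.28 and 7.17 CPM in the oviduct. Ovary library 1 was the lowest of the ovary by a wide margin and still above each oviduct library (log2 fold change 9.01, SE 1.56, adjusted p = 0.00487). CYP11A1, the side-chain cleavage enzyme, stood at 308, 2051 and 2425 CPM against 27.8, 16.8 and 24.4 CPM (log2 fold change 6.11, SE 0.84, adjusted p = 0.00192). SCARB1, the receptor that takes up cholesterol from high-density lipoprotein, stood at 328, 1167 and 2420 CPM against 106, 114 and 122 CPM (log2 fold change 3.52, SE 0.69, adjusted p = 0.00795). CYB5A, the cytochrome b5 that assists CYP17A1, did not pass, at 131, 666 and 404 CPM against 487, 311 and 473 CPM (log2 fold change -0.08, adjusted p = 0.919), and its libraries overlapped. INSL3, a peptide hormone of theca cells, stood at 34.7, 315 and 266 CPM against 0.105, 0.525 and 1.79 CPM (log2 fold change 7.95, adjusted p = 0.00259). The receptor NR5A1 stood at 19.1, 29.2 and 29.3 CPM against 0.105, 0.0875 and 0 CPM (adjusted p = 6.85e-05), with 2 counts in all of the oviduct. Its value in ovary library 1 was the lowest of the ovary by a smaller margin than for CYP17A1 and CYP11A1. The related receptor NR5A2 had a wider one, at 12.2, 188 and 282 CPM (log2 fold change 6.45, adjusted p = 0.00661). HSD11B1, which regenerates active glucocorticoid, was the member higher in the oviduct, at 221, 171 and 233 CPM against 35.5, 29.8 and 39.6 CPM (log2 fold change -2.57, SE 0.20, adjusted p = 0.000142). INSL3, NR5A1, NR5A2 and HSD11B1 were chosen after their values were seen. STAR, HSD3B1 and CYP19A1 had no row under these symbols, and their levels were not analysed here.

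The list of granulosa and ovarian stroma genes gave 13 of 14 tested members higher in the ovary, out of 22 in the list, with a median log2 fold change of 3.30. SERPINE2, a protease inhibitor of granulosa cells, stood at 302, 2588 and 4831 CPM in the ovary and 6.72, 6.48 and 22.1 CPM in the oviduct (log2 fold change 7.77, SE 1.25, adjusted p = 0.0036). INHA, the alpha subunit of inhibin, stood at 84.4, 3398 and 7751 CPM against 0.315, 1.49 and 45.2 CPM. Ovary library 3 was the highest and ovary library 1 the lowest in both genes, and oviduct library 3 was the highest of the oviduct. INHA passed the test narrowly (log2 fold change 7.90, SE 2.38, adjusted p = 0.0385) and was not called without ovary library 2 or 3, oviduct library 1 or 2, or the filter on low counts. The receptors for the gonadotrophins differed in kind. FSHR, the receptor of follicle-stimulating hormone in granulosa cells, stood at 18.3, 1.20 and 12.7 CPM and had 0 counts in each oviduct library, so that it was at least 37.3-fold higher in the ovary (adjusted p = 0.0175). LHCGR, the receptor of luteinising hormone, stood at 2.75, 21.4 and 7.63 CPM against 1.37, 1.14 and 1.13 CPM (log2 fold change 3.12, adjusted p = 0.018), and was not called without any 1 of the oviduct libraries. FSHR was lowest in ovary library 2 and LHCGR, chosen after its values were seen, highest there.

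The transcription factors of this list varied less within the ovary than INHA or SERPINE2. GATA4 stood at 50.2, 47.2 and 103 CPM against 0, 1.22 and 0.850 CPM (log2 fold change 6.52, SE 0.79, adjusted p = 0.00108), and GATA6 at 119, 140.1 and 363 CPM against 82.3, 91.8 and 67.2 CPM (log2 fold change 1.37, SE 0.44, adjusted p = 0.0471). GATA6 was not called without any 1 of the oviduct libraries or without the filter on low counts. LHX9, needed to form the gonad, had 0 counts in each oviduct library and was at least 13.9-fold higher in the ovary (adjusted p = 0.00553). DCN, the matrix proteoglycan decorin of the stroma, was higher in the ovary at 1329, 1202 and 1110 CPM against 602, 263 and 549 CPM (log2 fold change 1.36, SE 0.33, adjusted p = 0.0175), but not without oviduct library 3. WT1 was the member higher in the oviduct, at 192, 171 and 165 CPM against 63.9, 32.6 and 79.3 CPM (log2 fold change -1.59, SE 0.32, adjusted p = 0.00887). It encodes a zinc finger factor of gonads and of mesothelium.

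In the wider list of Mullerian and gonad transcription factors, 10 of 30 were tested and 3 were higher in each tissue, against 17.3% and 20.7% of all genes. GATA4, LHX9 and NR5A1 were higher in the ovary, and PAX2, LHX1 and WT1 in the oviduct. LHX1, which acts in the early Mullerian duct, stood at 2.10, 2.62 and 2.45 CPM against 0.266, 0 and 0.174 CPM (log2 fold change -3.92, adjusted p = 0.0036). NR2F2, a nuclear receptor of mesenchyme (log2 fold change 0.58, adjusted p = 0.067), and SOX9, a factor of duct and gonad (log2 fold change -0.75, adjusted p = 0.196), were not called, but NR2F2 was called higher in the ovary without ovary library 1 and SOX9 higher in the oviduct without ovary library 2. HOXA9 had 0 counts in all 6 libraries, and HOXA10 had 0, 0 and 0.0944 CPM in the oviduct and 0 counts in each ovary library, against 5.34 to 9.61 CPM in the endometrium. LHX1, LHX9, HOXA9 and HOXA10 were chosen after their values were seen.

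Oocyte genes were higher in the ovary for 9 of the 12 tested members of a list of 24, with a median log2 fold change of 2.84. PADI6, a protein of the egg cytoplasmic lattices, stood at 54.9, 7.57 and 22.4 CPM in the ovary and had 0 counts in each oviduct library, so that it was at least 98.5-fold higher (adjusted p = 0.00623). ZP3, a glycoprotein of the zona pellucida, stood at 72.2, 5.35 and 33.9 CPM and had 2 counts in all in the oviduct, a ratio of 591 with a 95% counting interval of 164 to 4900 (adjusted p = 0.00342). Both were highest in ovary library 1, which had the least of the steroid enzymes, and lowest in ovary library 2. The same order held for BMP15, a growth factor of the oocyte, at 9.75, 1.57 and 7.98 CPM against 0.315, 0.175 and 0.0944 CPM (log2 fold change 4.99, adjusted p = 0.0049). BMP6, a growth factor that other cells make as well, stood at 421, 393 and 529 CPM against 211, 243 and 300.1 CPM (log2 fold change 0.83, SE 0.21, adjusted p = 0.0202). It was not called without oviduct library 1 or 2.

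Not every gene of that list separated the tissues. GDF9, a growth factor known from the oocyte, stood at 56.3, 25.9 and 32.5 CPM in the ovary, 37.7, 27.6 and 33.4 CPM in the oviduct and 26.2 to 32.7 CPM in the endometrium (log2 fold change 0.22, SE 0.31, adjusted p = 0.614). The zona pellucida gene ZP2 stood at 4.52, 0.831 and 3.73 CPM against 8.40, 2.36 and 4.34 CPM (log2 fold change -0.72, adjusted p = 0.446). SOHLH2, a transcription factor of early germ cells, was higher in the oviduct at 10.1, 7.70 and 9.53 CPM against 4.79, 1.75 and 2.78 CPM (log2 fold change -1.55, adjusted p = 0.02), but not without oviduct library 1 or 3. The strand setting of the counting is not given in the sources used here, so reads of overlapping genes cannot be set apart in these 3. ZP2, SOHLH2 and BMP15 were chosen after their values were seen. Without oviduct library 1, 5 members of the list were higher in the ovary in place of 9.

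Genes of the list for the corpus luteum, the gland that forms from the follicle after ovulation, were higher in the ovary for 7 of 8 tested members of 15. APOE, the apolipoprotein of steroid cells and macrophages, stood at 11080, 8937 and 562 CPM against 170.0, 124 and 159.7 CPM (log2 fold change 5.50, SE 1.06, adjusted p = 0.00762). TIMP1, the inhibitor of matrix metalloproteinases, stood at 413, 2326 and 2979 CPM against 269, 394 and 371 CPM (log2 fold change 2.47, SE 0.68, adjusted p = 0.0276). APOE was lowest in ovary library 3, TIMP1 in ovary library 1. TIMP1 was not called without ovary library 2 or 3 or any 1 of the oviduct libraries. The count of 7 fell to 4 without any 1 of the oviduct libraries. OXTR, the oxytocin receptor, was higher in the ovary (log2 fold change 5.44, adjusted p = 0.0016), and PRLR, the prolactin receptor, in the oviduct (log2 fold change -3.66, adjusted p = 0.00342), both chosen after their values were seen.

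**Figure D3:**
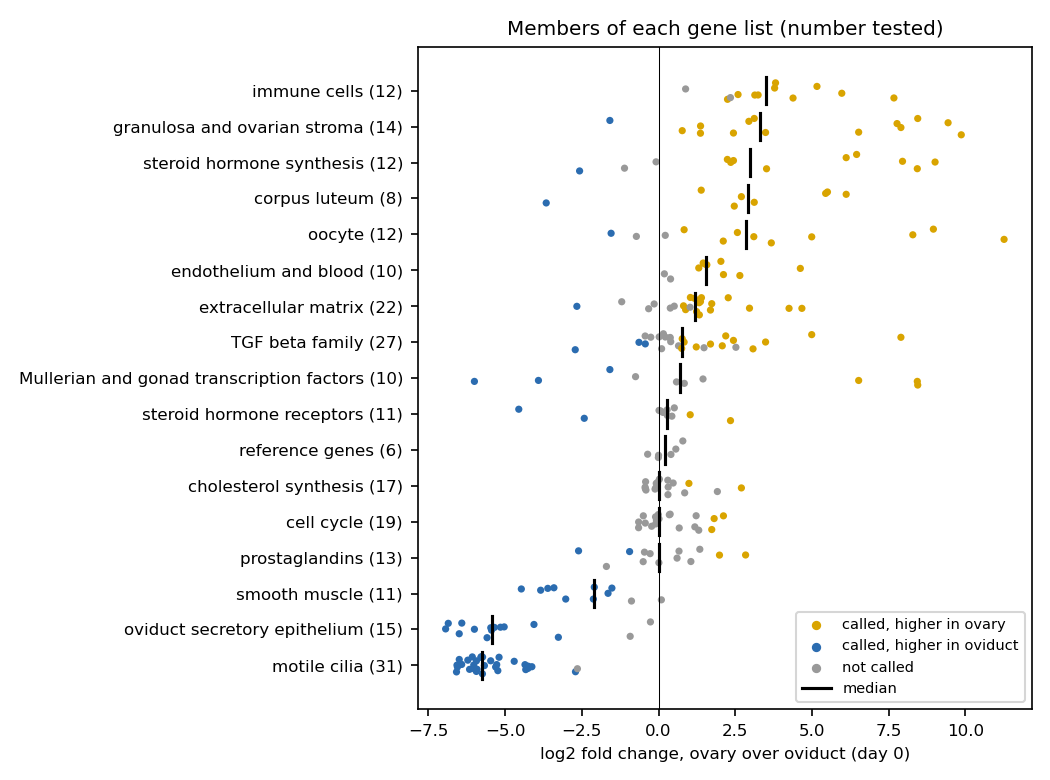
Each point is a tested member of 1 of 17 gene lists, placed by its log2 fold change of ovary over oviduct at day 0. Gold is called higher in the ovary, blue called higher in the oviduct, grey not called, and the black bar is the median, which runs from -5.74 for motile cilia to 3.51 for immune cells.

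Immune cell genes were higher in the ovary for 10 of 12 tested members of 25, with a median log2 fold change of 3.51. By edgeR's quasi-likelihood test, by its unadjusted p under 0.05 and by DESeq2, 0 members of this list or of the endothelial list were higher in the oviduct. The summed level of the 15 members with a row was 6655, 6215 and 361.3 CPM in the ovary, 87.9 to 95 CPM in the oviduct and 168 to 344 CPM in the endometrium. LYZ, the lysozyme of macrophages, stood at 5691, 5279 and 21.5 CPM in the ovary and 23.3, 11.2 and 19.4 CPM in the oviduct (log2 fold change 7.67, SE 1.83, adjusted p = 0.0169). CD68, a lysosomal protein of macrophages, stood at 246, 166 and 8.76 CPM against 5.78, 5.16 and 9.25 CPM (log2 fold change 4.38, SE 1.09, adjusted p = 0.0199). In both, ovary library 3 overlapped the oviduct, and ovary libraries 1 and 2 lay far above it. PTPRC, the leukocyte common antigen, stood at 183, 148 and 12.5 CPM against 9.04, 8.31 and 7.55 CPM (log2 fold change 3.78, SE 0.89, adjusted p = 0.0163). KIT, a receptor found on mast cells, theca and oocytes, had another order over the ovary libraries, with 75.2, 327 and 259.6 CPM against 38.6, 47.1 and 24.3 CPM and its lowest ovary value in library 1 (log2 fold change 2.59, SE 0.56, adjusted p = 0.0113). LYZ, CD68 and PTPRC were not called without any 1 of the oviduct libraries, and KIT not without oviduct library 1 or 3. The list had 13 members higher in the ovary without ovary library 3, and 3, 4 and 3 without oviduct library 1, 2 and 3. CD4, a co-receptor of T cells, stayed called in all 12 alternatives and was chosen after its values were seen. It stood at 25.9, 25.3 and 4.94 CPM against 0.420, 0.262 and 0.189 CPM (log2 fold change 5.97, adjusted p = 0.00181). Among other T cell genes, CD2 was called higher in the ovary, but in only 6 of the 12 alternatives. CD3D and CD8A were not called, and passed in 4 and 1 of the alternatives. These genes too were chosen after their values were seen.

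Extracellular matrix genes were higher in the ovary for 15 of 22 tested members of 27, with a median log2 fold change of 1.20 and 1 higher in the oviduct. FN1, fibronectin, stood at 4801, 16520 and 468 CPM against 202, 374 and 279 CPM (log2 fold change 4.67, SE 1.19, adjusted p = 0.0212). Its order over the ovary libraries, highest in 2 and lowest in 3, differed from that of the fibrillar collagens. COL3A1 stood at 9152, 7937 and 8264 CPM against 5059, 4003 and 5371 CPM (log2 fold change 0.81, SE 0.24, adjusted p = 0.0325), and COL1A2 at 1970, 1841 and 3303 CPM against 976, 883 and 989 CPM (log2 fold change 1.32, SE 0.28, adjusted p = 0.0106). COL4A2, a basement membrane collagen, stood at 1433, 1868 and 2644 CPM against 934, 1107 and 1186 CPM (log2 fold change 0.88, SE 0.28, adjusted p = 0.0434). The endometrium lay above both tissues for COL3A1, at 13080 to 15890 CPM. LUM, the proteoglycan lumican, was the member higher in the oviduct, at 446, 237 and 448 CPM against 56.8, 90.2 and 31.5 CPM (log2 fold change -2.66, adjusted p = 0.00434), and HAS2, a hyaluronan synthase of the expanding cumulus, was higher in the ovary at 9.04, 18.9 and 5.46 CPM against 0.630, 0.438 and 0.661 CPM (log2 fold change 4.25, adjusted p = 0.00167), both chosen after their values were seen. The count of 15 was 8, 7 and 7 without oviduct library 1, 2 and 3, and 3 members were higher in the oviduct without ovary library 2. FN1 was not called without any 1 of the oviduct libraries, COL3A1 not without ovary library 1 or 2 or any oviduct library, COL4A2 not without ovary library 2 or 3 or any oviduct library, and COL1A2 not without oviduct library 2. None of these 3 collagens was called in the fit of all 66 libraries.

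Most endothelial genes tested were higher in the ovary, and their summed level was even across its libraries. Of 10 tested members of 18, 8 were higher in the ovary, with a median log2 fold change of 1.54. The summed level of the 11 members with a row was 1106, 1327 and 1144 CPM in the ovary and 345.5, 332.8 and 417 CPM in the oviduct. ENG, the TGF-beta coreceptor endoglin of endothelium, stood at 479, 622 and 519 CPM against 72.5, 79.9 and 106 CPM (log2 fold change 2.65, SE 0.22, adjusted p = 0.000198). PECAM1, an endothelial adhesion molecule, stood at 205, 236 and 203 CPM against 64.6, 65.4 and 95.4 CPM (log2 fold change 1.52, SE 0.20, adjusted p = 0.00155). PDGFRB, the pericyte receptor, stood at 128, 104 and 84.1 CPM against 28.2, 23.9 and 20.9 CPM (log2 fold change 2.12, SE 0.21, adjusted p = 0.000446). KDR, the main receptor of VEGF, did not pass, at 88.0, 129 and 147 CPM against 116, 89.2 and 113 CPM (log2 fold change 0.19, SE 0.22, adjusted p = 0.546).

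**Figure D4:**
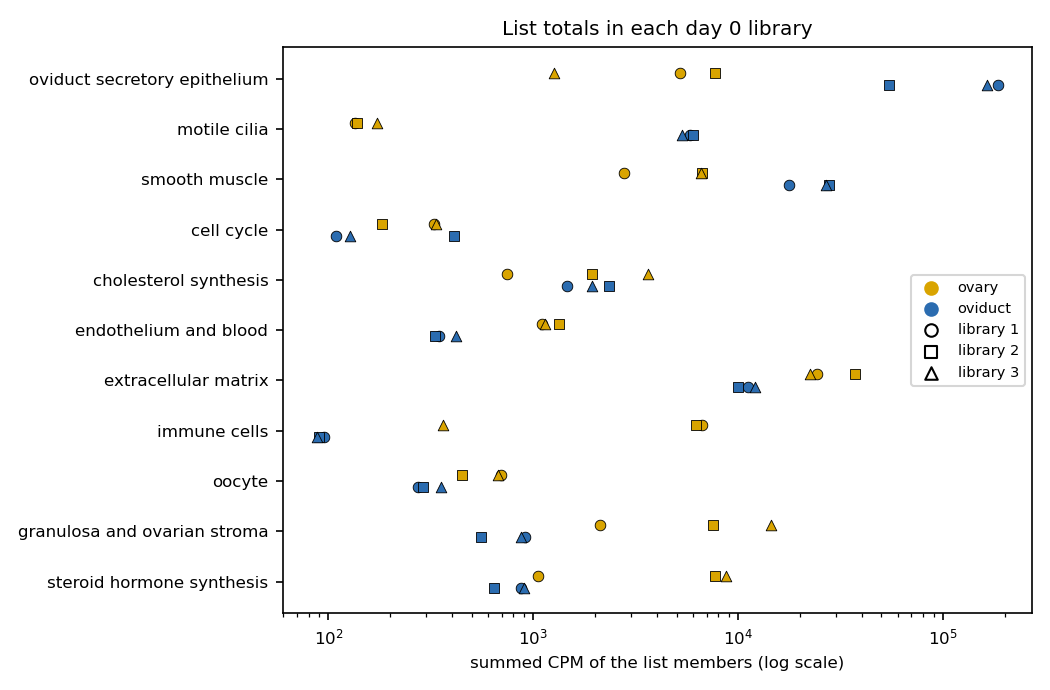
Summed CPM (log scale) of the members of 11 lists in each day 0 library, with the ovary in gold, the oviduct in blue and library 1, 2 and 3 as circle, square and triangle. The cilia totals of 135.3 to 171.7 CPM in the ovary and 5285 to 6005 CPM in the oviduct are tight within each tissue, while the immune total of the ovary spans 361.3 to 6655 CPM.

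The TGF-beta family includes the inhibins and the oocyte growth factors. Of 27 tested members, 12 were higher in the ovary and 3 in the oviduct, against 17.3% and 20.7% of all genes. The median log2 fold change was 0.75. TGFB1, a ligand with many sources, stood at 236, 187 and 61.2 CPM against 16.9, 19 and 21.4 CPM (log2 fold change 3.08, adjusted p = 0.00349). The antagonist follistatin (FST, log2 fold change 3.49) and the receptor of anti-Mullerian hormone (AMHR2, 2.44) were higher in the ovary. BMPR1B, the receptor through which BMP15 can signal, stood at 19.9, 351 and 219 CPM against 45.7, 25.8 and 31.4 CPM, with ovary library 1 below the oviduct (log2 fold change 2.52, SE 0.89, adjusted p = 0.0642), and was called higher in the ovary without that library. The shared signal transducer SMAD4 was slightly higher in the oviduct, at 159, 149 and 148 CPM against 124, 105 and 109 CPM (log2 fold change -0.43, SE 0.14, adjusted p = 0.0462), a call that was lost without ovary library 2 or 3, any 1 of the oviduct libraries or the filter on low counts. The ligand BMP7 was also higher in the oviduct (log2 fold change -2.72, adjusted p = 0.0228), but not without oviduct library 2 or 3. The count of 12 was 6 without oviduct library 1 or 2, and that of 3 was 1 without ovary library 2 or any 1 of the oviduct libraries. TGFB1, FST, AMHR2 and BMP7 were chosen after their values were seen.

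Prostaglandin genes gave 2 of 13 tested members higher in each tissue, close to the shares of all genes. By edgeR the ovary count was 0 without oviduct library 1, where 4 members had an unadjusted p under 0.05, 1 without ovary library 2 or oviduct library 2, and 4 without ovary library 3, and by DESeq2 it was 5. PTGES, the inducible prostaglandin E synthase, was higher in the ovary at 23.5, 104 and 77.1 CPM against 8.09, 6.48 and 14.1 CPM (log2 fold change 2.84, SE 0.59, adjusted p = 0.00995), though not without oviduct library 1. PTGES3, the cytosolic synthase and chaperone partner, was higher in the oviduct at 256, 374 and 249 CPM against 151, 143 and 163 CPM (log2 fold change -0.94, SE 0.21, adjusted p = 0.0114). PTGIS, the prostacyclin synthase, stood at 90.7, 105 and 149.6 CPM against 115, 89.7 and 138 CPM (adjusted p = 0.978), and PTGER4, a receptor of prostaglandin E2, had a log2 fold change of -1.70 (adjusted p = 0.0798), and was called higher in the oviduct without ovary library 3.

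Cholesterol synthesis and the cell cycle did not separate the tissues as lists on this day. Of 17 genes tested for cholesterol synthesis, 2 were higher in the ovary, against 17.3% of all genes, and the median log2 fold change was 0.03. At most 1 member was called higher in the ovary without ovary library 2 or 3 or any 1 of the oviduct libraries, and 2 were called higher in the oviduct without ovary library 3. HMGCS1, an early enzyme of the pathway, stood at 91.1, 242 and 528 CPM in the ovary and 277, 538 and 353 CPM in the oviduct (log2 fold change -0.44, SE 0.60, adjusted p = 0.6). SREBF2, the transcription factor of the pathway, had a log2 fold change of -0.43 (adjusted p = 0.496). In both, ovary library 1 was the lowest and ovary library 3 the highest of the ovary, and SREBF2 was called higher in the oviduct without ovary library 3. Of 19 cell cycle genes tested, 3 were higher in the ovary, a share close to that of all genes, with a median of 0.01. By edgeR the count was 0 without oviduct library 1 or 3, where 3 had an unadjusted p under 0.05, and 6 without oviduct library 2, and by DESeq2 it was 5. TOP2A, the topoisomerase of dividing cells, stood at 54.3, 27.1 and 58.4 CPM in the ovary and 15.2, 114 and 20.0 CPM in the oviduct (log2 fold change -0.10, SE 0.77, adjusted p = 0.933), so that oviduct library 2 lay above all other libraries. The replication helicase subunit MCM4 was higher in the ovary (log2 fold change 1.73, SE 0.40, adjusted p = 0.0157), but not without oviduct library 1 or 3. MCM2 (1.18, adjusted p = 0.0657) and MCM3 (1.22, adjusted p = 0.0571) were not called, but both were called higher in the ovary without oviduct library 2, and MCM3 also without ovary library 2. Of the 6 reference genes tested, 0 were called by edgeR's quasi-likelihood test, 1 had an unadjusted p under 0.05 and 1 was called by DESeq2. They included GAPDH, at 378, 592 and 520.2 CPM against 401, 502 and 588 CPM (log2 fold change 0.00, SE 0.24), ACTB (0.56, SE 0.31), UBB (-0.36, SE 0.20) and YWHAZ (-0.01, SE 0.21).

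Some genes were detected in only 1 of the 2 tissues compared, a rule that leaves out the endometrium. With at least 10 counts in each library of a tissue and at most 3 in each library of the other, 88 genes were detected in the ovary only and 190 in the oviduct only, against 12518 with at least 10 counts in all 6 libraries. The genes with a symbol that had the largest fitted differences are given next. Higher in the ovary, beside PADI6, FSHR, CYP17A1 and ZP3 above, they included FKBP6, an immunophilin of germ cells at least 63.8-fold higher, RSPO2, a secreted activator of WNT signalling at least 23.1-fold, the transglutaminase TGM5 at least 19.7-fold and TCL1B at least 16.7-fold. In the oviduct they were RBBP8NL, with 14.4, 8.58 and 9.63 CPM and 0 counts in the ovary (at least 40.6-fold, adjusted p = 0.000523), UMOD, the secreted uromodulin (at least 18.4-fold), LRTM1 (at least 15.9-fold), the homeobox gene HOXA2 (at least 9.68-fold), SH2D3A (at least 7.87-fold) and SLC6A2, the noradrenaline transporter (at least 7.28-fold). A further 3 had 2 counts in all in the ovary. SLC22A2, an organic cation transporter, had a ratio of 340.2 (95% counting interval 90.3 to 2710), CYP4B1, a cytochrome P450, a ratio of 212.5 (60.6 to 1830) and KRT85, a keratin, a ratio of 211 (62.1 to 1870). The last, C1orf87, stood at 79.5, 50.1 and 63.3 CPM against 0.0886, 0.554 and 0.520 CPM (adjusted p = 9.59e-05). Several of these oviduct genes were also present in the day 0 endometrium. Its mean was 9.25 CPM for RBBP8NL, 21.8 for HOXA2, 21.3 for C1orf87, 2.89 for SH2D3A, 2.47 for SLC22A2, 1.93 for UMOD and 1.21 for CYP4B1. It was 0.35 CPM for SLC6A2, 0.20 for LRTM1 and 0.17 for KRT85. For the ovary genes named here it was at most 0.18 CPM. Without ovary library 3, 161 genes were detected in the ovary only, in place of 88.

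The genes called on day 0 were then looked up in the ovary and oviduct libraries of the other 6 days, which the calls had not used. Of the 3036 genes higher in the oviduct, 89% to 94.4% had the same direction of group means on each of days 3 to 18, and 60.2% to 84.2% had no overlap of libraries in that direction, against 49.9% to 51.6% and 18.5% to 37.8% of the 14702 genes tested on day 0, looked up in the same way. Of the 2543 genes higher in the ovary, 84.5% to 94.9% had the same direction and 44.6% to 71.8% no overlap, against 48.4% to 50% and 12.4% to 34.8% of the genes tested. Among the genes of at least 8-fold, the same direction was kept by 97.2% to 99.7% of the 1125 of the oviduct and by 87.5% to 99.8% of the 513 of the ovary, with the lowest ovary share on day 6 and the highest on day 18. These shares carry no test, and groups of 2 to 4 libraries reach no overlap with unequal ease.

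Whether the tissue difference itself changed was tested between day 0 and day 9, in the luteal phase, with edgeR's quasi-likelihood test over 12 libraries. Of 15443 genes, 4003 were called (25.9%), 2087 of them shifted towards the ovary on day 9 (13.5%) and 1916 towards the oviduct (12.4%). Of 17 cholesterol synthesis genes, 15 shifted towards the ovary, with a median shift of 3.55 on the log2 scale against -0.04 over all genes. The count was 14 to 17 in the 16 alternatives run. HMGCS1 went from a log2 fold change of -0.44 on day 0 to 4.43 on day 9 (difference 4.87, SE 0.71, adjusted p = 0.00117). Extracellular matrix followed with 12 of 22 members, and COL3A1 went from 0.82 to 4.69 (difference 3.88, SE 0.37, adjusted p = 0.00016). Of the 6 reference genes, 3 also shifted towards the ovary, GAPDH by 1.32, with a median shift of 0.74.

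Other lists shifted in fewer members or leaned on single libraries. In the immune list, 5 of 12 members shifted towards the oviduct. LYZ went from 7.67 to -1.32 (difference -8.99, SE 1.82, adjusted p = 0.00589). The count was 11 without day 0 ovary library 3. Removing another library of the 12 gave 2 to 4. Among cell cycle genes, 9 of 19 shifted towards the ovary, and 4 without day 9 ovary library 2 or day 9 oviduct library 2, 5 without day 0 oviduct library 2 or day 9 oviduct library 3, and 6 without day 0 ovary library 2. Among motile cilia genes, 8 of 31 shifted towards the oviduct, a count that was 3 to 5 without day 0 ovary library 2, day 0 oviduct library 2 or 3, day 9 ovary library 1 or 3, or any 1 of the day 9 oviduct libraries. The median difference of the cilia list stayed between -5.79 and -4.52 on log2(CPM + 1) over the 7 days, and that of the secretory list between -6.39 and -4.81. The median of the cholesterol list was -0.16 on day 0, 3.40 to 3.79 on days 3 to 12, 1.10 on day 15 and -0.95 on day 18.

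**Figure D5:**
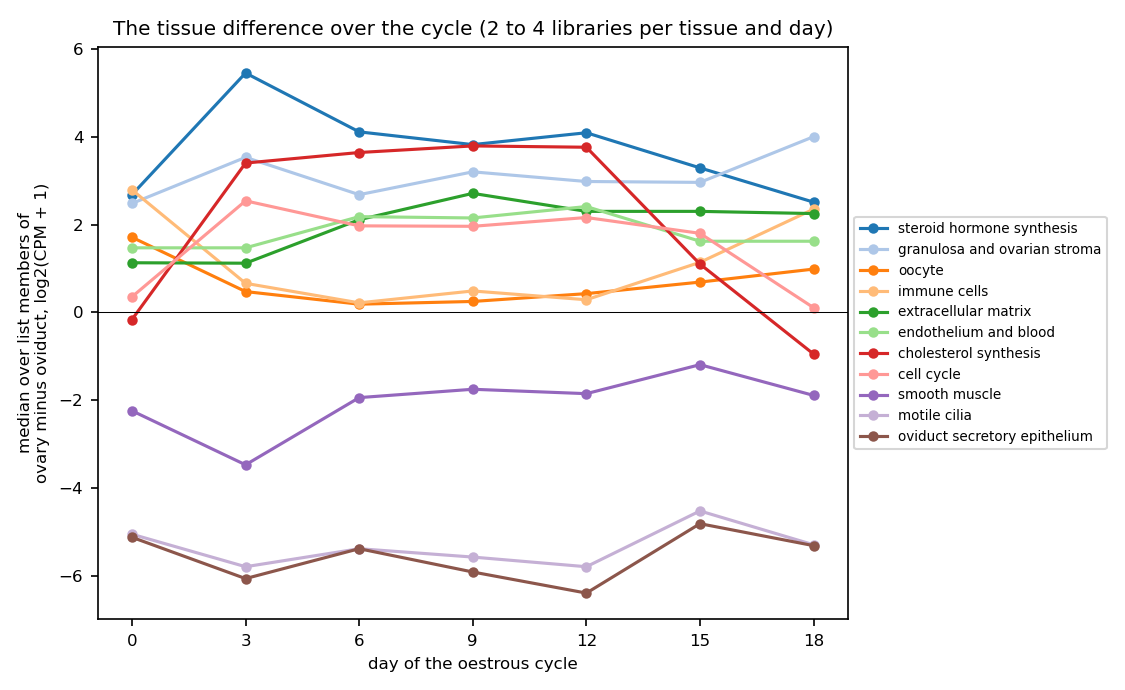
Median over the members of 11 lists of the ovary minus oviduct difference of mean log2(CPM + 1), by day of the oestrous cycle, with 2 to 4 libraries per tissue and day and a line at 0. The cilia and secretory lists stay under -4.5 on all 7 days, and the cholesterol list starts near 0 on day 0, lies above 3 from day 3 to day 12 and is under 0 on day 18.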

How the data were processed

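Total RNA of each tissue was made into poly-A libraries and sequenced as paired-end reads by the study. After removal of the leading 13 bases, the authors mapped reads with tophat2 2.0.13 to the pig genome (Sus scrofa 10.2, Ensembl release 78), and they deposited raw counts for every Ensembl gene in each library, neither normalized nor pooled. The submitters' processing notes name featureCounts and edgeR among the tools, and how the counting treated strand is not given in the sources used here. The labels name a stranded kit and the paper's methods do not. The study's own tests used FPKM, which were not used here. The table holds 66 libraries of 67 labelled samples, and 0 of its columns were left unassigned to a group. The labels number libraries from 0 and the columns from 1 with gaps, so a column was matched to its tissue and day and not to a single labelled sample.

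Of 25322 genes, 11804 were paired with a symbol through a gene name table, and 256 of 374 symbols in 17 gene lists were found, 234 of them tested. The lists, the rule and the comparison were chosen with earlier results of these data known. Counts of the 6 libraries were fitted with edgeR 4.0.16 in R 4.3.3 (TMM, filterByExpr, robust glmQLFit, glmQLFTest), with Benjamini-Hochberg adjustment over all genes tested and calls at an adjusted p under 0.05. SEs were obtained by dividing the log2 fold change by the root of the F statistic. A fold against a tissue with 0 counts in each library is a lower bound at 3 counts per library. Named genes were the 10 largest log2 fold changes each way with a symbol, a minimum of 10 counts per library of the higher tissue and no overlap, and the 4 members of each list with the highest mean CPM. Others are marked in the text, and some genes that the rule names are not reported here. No pair of libraries was identical, with a chi-squared statistic per degree of freedom of at least 14.9. The code was tested on simulated data with 3 libraries per tissue. Of 50 genes changed at each size, 6 were called at 2-fold, 34 at 4-fold, 45 at 8-fold and 49 at 16-fold. A gene not called can thus still differ between the tissues. Alternatives were DESeq2's size factors, no filter on low counts, DESeq2 1.42.0, all 9 libraries of day 0, all 66 libraries, a block for the replicate number, and the omission of single libraries. No sequences or coordinates are given. Figures used Python 3.11.15 with matplotlib 3.10.9.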

Additional observations from a re-analysis of the deposited data

Results flagged for a closer look

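For 21 of the genes named by rule and reported here, the ovary against oviduct difference on day 9 differed from that on day 0. The test was edgeR's quasi-likelihood test of the difference itself, at an adjusted p under 0.05. Of all 15443 genes in that test, 4003 were called (25.9%), and the 21 are not read as an excess over this share. Each is given with day 9 minus day 0 on the log2 scale. Towards the ovary on day 9 were the genes of sterol synthesis HMGCS1 (4.87) and SREBF2 (2.44), the collagens COL3A1 (3.88), COL4A2 (2.41) and COL1A2 (2.08), and CYB5A (3.64), TOP2A (3.49), TIMP1 (2.32), KDR (1.80), ACTA2 (1.39), GAPDH (1.32) and ESR1 (1.12). Among the genes with the largest day 0 differences, CYP4B1 (3.64), which had 2 counts in all in the ovary on day 0, was less strongly shifted towards the oviduct on day 9. Genes with 0 counts in every library of a tissue and day are left out here, since their fitted difference has no measured size. Towards the oviduct on day 9 were the macrophage and leukocyte genes LYZ (-8.99) and PTPRC (-3.56), APOE (-3.65), the transcription factors SOX9 (-4.30) and WT1 (-1.65), PTGER4 (-2.94) and GDF9 (-1.61) and KRT8 (-1.46). GAPDH, a reference gene, was not called between the tissues on day 0. The groups held 3 libraries each, so no test of a single library against its group was made.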

How the results depend on the processing

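No source used here ties a library number to a gilt, so the numbers were not taken to pair the tissues. With 3 libraries per tissue the correlations below cannot decide whether libraries share an animal, and a pairing remains possible. The correlation of deviations from the group means was 0.148, -0.0331 and -0.00595 for libraries of the same number, and ovary library 2 was closest to oviduct library 3 (0.0423). With the replicate number as a block 4460 genes were called in place of 5579, 4340 of them shared, and in the lists 9 extracellular matrix genes (main 15) and 4 immune genes (main 10) were higher in the ovary. For the change between days 0 and 9 the block gave 2 cell cycle, 5 motile cilia and 0 immune genes in place of 9, 8 and 5; 5 immune genes had an unadjusted p under 0.05 with it, and DESeq2 without it called 8. Of the genes named here, BMP7, CD2, CD68, COL3A1, COL4A2, FN1, GATA6, LYZ, MCM4, NR3C1, PTPRC, SMAD4 and TIMP1 were not called with the block. Leaving out single libraries gave 3616 to 6555 calls in all, 1261 to 3112 higher in the ovary and 339 to 667 at least 8-fold higher there, with 5 to 10 oocyte, 7 to 14 extracellular matrix and 3 to 13 immune genes higher in the ovary, and 98 to 161 genes detected in the ovary only. At 5 counts in place of 10, 172 genes were detected in the ovary only and 312 in the oviduct only. The most abundant 10, 100 and 1000 genes held 9.83%, 27.4% and 58% of counts in the ovary and 20%, 33.7% and 59.1% in the oviduct; for 100 genes an exact two-sided permutation test gave p = 0.2, and 0.1 is the smallest p that 3 against 3 libraries allow. The share of calls that were higher in the ovary was 45.6%, and 34.2% to 35.9% without 1 of the oviduct libraries. Other settings called 5580 (DESeq2's size factors), 5672 (no filter), 6648 (DESeq2), 6740 (all 9 libraries of day 0) and 6516 genes (all 66 libraries). Of the named genes not called in the fit of 6 libraries, DESeq2 called MCM2, MCM3, CCNO, ANXA4, PTGER4, BMPR1B and CD3D. The 9 libraries of day 0 called these and NR2F2, and all 66 libraries called ANXA4, PTGER4, BMPR1B and CD3D. Of 75 listed or named genes higher in the oviduct, 69 were called in all 12 alternatives, and of 87 higher in the ovary, 45, with 41 lost without some oviduct library. Among the genes named here and refitted, the log2 fold change turned in sign for 12, of which 0 were called in the fit of the 6 libraries. Without single libraries it ran from -0.90 to 0.73 for CDK1, -0.54 to 1.36 for TOP2A, -0.0012 to 0.35 for KDR, -0.19 to 0.44 for GDF9, -0.76 to 0.23 for CLU, -0.25 to 0.16 for PTGIS, -0.14 to 0.14 for GAPDH, -0.15 to 0.14 for YWHAZ, -0.18 to 0.24 for CALD1, -0.31 to 0.69 for PGR, -0.048 to 0.76 for PGRMC1 and -0.66 to 0.31 for CYB5A. The block gave 0.56 for TOP2A and -0.66 for PGR, the 9 libraries of day 0 gave 0.0074 for GAPDH and 0.0013 for YWHAZ, and all 66 libraries gave -7.9e-05 for PTGIS. The cause of these turns and of the losses was not tested. Depth limits genes near 3 counts per library. A fold is a bound where a tissue had 0 counts in each library, and a ratio with its counting interval where it had 2 counts in all. BMP15, CYP7A1, LGR5 and LHX1 had at most 3 counts per library in the lower tissue, so their fitted fold changes are of uncertain size.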

Other observations

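Oviduct library 2 stood apart from the other oviduct libraries in several genes chosen after their values were seen. Its summed level over 19 cell cycle genes was 411.9 CPM, against 109.1 and 127.2 CPM in oviduct libraries 1 and 3 and 182.6 to 333 CPM in the ovary. CDK1, the kinase that starts mitosis, stood at 5.25, 30.6 and 6.51 CPM in oviduct libraries 1, 2 and 3, and the ciliogenesis gene CCNO at 14.1, 89.9 and 12.6 CPM. OVGP1 was lowest there, at 47780 CPM against 177300 and 156600 CPM, while the summed cilia level, 6005 CPM against 5784 and 5285 CPM, was not. These values carry no test.

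CYP7A1, the rate-limiting enzyme of bile acid synthesis in the liver, was among the 88 genes detected in the ovary only. It stood at 86.4, 36.6 and 1.13 CPM in ovary libraries 1, 2 and 3 and at 0.105, 0.262 and 0.0944 CPM in the oviduct (log2 fold change 7.93, edgeR adjusted p = 0.0117). Its order over the ovary libraries was that of LYZ and CD68. The granulosa genes INHA and SERPINE2 had the reverse order, and FSHR had yet another. Which cells gave the CYP7A1 reads was not tested. The paper's in situ hybridization placed CYP7A1 mRNA in follicles, with a strong signal in granulosa cells. LGR5, a receptor of R-spondins and a marker of epithelial stem cells, was among the 190 genes detected in the oviduct only, at 5.57, 13.2 and 4.44 CPM against 0.0886, 0.277 and 0.174 CPM (log2 fold change -5.35, edgeR adjusted p = 0.0011). Both were chosen after their values were seen. In each, the lower tissue held at most 3 counts per library, so the size of these fitted changes is uncertain.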
